A study of Mus musculus with 6 samples.

Results

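Itaconate acts next to the tricarboxylic acid (TCA) cycle, and 34 genes of that cycle, of succinate dehydrogenase (SDH) and of the entry of pyruvate were followed here. They were taken by symbol from tables of 55487 genes, and all 34 were found, each under a single gene identifier. The libraries came from mouse CD8+ T cells of the C57BL/6 strain that had spent 48 h with 5 mM itaconate or, as the control, with NaCl. Each of the 2 groups held 3 RNA-seq libraries, and the labels name no other treatment, no genotype, no age of the mice and no stimulus. Nothing in the labels ties a replicate to a mouse or a culture, so all p-values rest on the spread among 3 libraries a group, part or all of which may be technical.

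The TCA cycle burns acetyl groups in the mitochondrial matrix and feeds electrons to the respiratory chain. Pyruvate enters the matrix through the mitochondrial pyruvate carrier and is turned into acetyl-CoA by the pyruvate dehydrogenase complex, which kinases switch off and phosphatases switch on. SDH is both an enzyme of the cycle and complex II of the respiratory chain, and itaconate, which is made from the cycle intermediate cis-aconitate and resembles succinate, is known as a competitive inhibitor of it. Activated CD8 T cells use the cycle for energy and to export citrate for lipid synthesis and acetylation.

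Of the 34 genes, 4 rose with itaconate, none fell and 30 did not pass the test (edgeR's quasi-likelihood test with Benjamini-Hochberg adjustment over all 12350 genes tested, adjusted p under 0.05; at an unadjusted p under 0.05, 9 were higher and 2 lower, beside 14.2% and 12.3% of all genes). The 4 were Sdhb, an iron-sulfur subunit of SDH, Idh2, the mitochondrial NADP-dependent isocitrate dehydrogenase, Idh3g, a regulatory subunit of the NAD-dependent isocitrate dehydrogenase, and Mpc2, a subunit of the pyruvate carrier. Their increases lay between 12.8% and 26.1%. The 4 calls make up 11.8% of the genes of this group, and 12.0% of all genes tested were called, so the share of called genes is near the background. By direction, 6.68% of all genes were called higher and 5.36% lower. The groups' levels did not overlap for 12 of the 34 genes (35.3%), 8 higher and 4 lower, against 31.2% of all genes tested (16.8% higher and 14.4% lower). The median log2 fold change of the 34 genes was 0.04, beside 0.01 for all genes tested.

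The RefSeq promoter sequences of the 4 genes that rose are shown because these genes were called in the same direction. Each is the 250 bases before the RefSeq start, 5′ to 3′ on the gene's strand, in the build GRCm38.p6. The Sdhb window is chr4:140961021-140961270 (plus strand), that of Idh2 chr7:80115351-80115600 (minus strand), that of Idh3g chrX:73786898-73787147 (minus strand) and that of Mpc2 chr1:165461010-165461259 (plus strand). RefSeq starts differ here from those of the GENCODE M21 annotation. By GENCODE, the Mpc2 window lies wholly within the gene, which runs from 165460637 to 165481214. The Sdhb and Idh2 windows reach into their genes, past the annotated starts at 140961203 and 80115392. Capitals mark matches, on either strand, to the motifs described after the sequences.
Sdhb promoter: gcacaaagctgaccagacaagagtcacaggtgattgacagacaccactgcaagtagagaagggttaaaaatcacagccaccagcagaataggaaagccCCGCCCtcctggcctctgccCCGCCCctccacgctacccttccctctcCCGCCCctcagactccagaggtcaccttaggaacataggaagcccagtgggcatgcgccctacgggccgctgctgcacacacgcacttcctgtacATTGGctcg
Idh2 promoter: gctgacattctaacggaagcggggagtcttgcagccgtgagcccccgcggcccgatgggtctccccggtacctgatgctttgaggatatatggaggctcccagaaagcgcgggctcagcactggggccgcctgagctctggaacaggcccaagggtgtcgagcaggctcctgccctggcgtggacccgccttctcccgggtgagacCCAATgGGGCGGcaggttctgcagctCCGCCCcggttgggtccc
Idh3g promoter: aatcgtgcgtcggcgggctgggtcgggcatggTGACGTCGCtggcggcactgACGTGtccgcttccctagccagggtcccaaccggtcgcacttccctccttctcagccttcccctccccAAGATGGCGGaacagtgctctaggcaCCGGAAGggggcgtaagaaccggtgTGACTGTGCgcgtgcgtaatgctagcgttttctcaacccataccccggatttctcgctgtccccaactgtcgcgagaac
Mpc2 promoter: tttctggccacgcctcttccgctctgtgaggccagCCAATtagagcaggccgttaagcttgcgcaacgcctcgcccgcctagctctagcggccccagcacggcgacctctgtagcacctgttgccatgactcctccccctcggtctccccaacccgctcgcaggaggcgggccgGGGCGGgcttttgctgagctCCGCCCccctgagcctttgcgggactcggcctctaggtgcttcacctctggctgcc

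In these windows Sdhb, Idh2 and Mpc2 each held a CCAAT box (CCAAT) and 2 or more GC boxes (GGGCGG), and Idh3g held neither. The Idh3g window instead held the YY1 motif, the ETS motif CCGGAAG, the hypoxia core ACGTG and 2 matches to the antioxidant element TGACNNNGC. No match to the NRF1 motif, the ESRRA motif TCAAGGTCA, the E-box CACGTG (which contains the hypoxia core) or the amino acid response motif TGATGNAA was found in these 4 windows. RefSeq promoters matched 30 of the 34 genes, with 39 windows in all. The CCAAT box stood in 53.8% of these 39 windows and in 33.8% of the windows of all genes in the RefSeq table, and the GC box in 64.1% and 32.7%. The hypoxia core stood in 38.5% (15 windows of 10 genes) and 16.6%, the ETS motif in 10.3% and 6.91%, and the antioxidant element in 12.8% and 10.2%. The NRF1 motif stood in 7.69% of the 39 windows (Sdha, Sdhd and Sucla2) and in 3.74% of all windows. For the E-box these shares were 12.8% (5 windows of 3 genes, Ogdh, Pcx and Pdk2) and 6.02%. The YY1 motif stood in 1 of the 39 windows, that of Idh3g (2.56%), and in 0.301% of all windows. The ESRRA motif, in 0.387% of all windows, and the amino acid response motif, in 3.45%, were in none of the 39. These shares are descriptions, and the table of all genes includes noncoding genes, whose windows differ in base composition.

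Levels are given as CPM, counts scaled to library size, for comparison between libraries, and as TPM, which is scaled per transcript length, for comparison between genes. The most abundant transcript per length was that of Mdh2, mitochondrial malate dehydrogenase, at 451.5 ± 14.0 TPM in control libraries (mean ± SD, n = 3), followed by Cs, citrate synthase, at 208 ± 3.75 TPM and Sdhb at 203 ± 8.23 TPM. The least abundant was Pdk2, a pyruvate dehydrogenase kinase, at 1.05 ± 0.25 TPM. Pcx, pyruvate carboxylase, which refills oxaloacetate, stood at 4.19 ± 0.745 TPM, and Pdp1, a pyruvate dehydrogenase phosphatase, at 5.48 ± 0.15 TPM. Among the isocitrate dehydrogenases, the cytosolic Idh1 stood at 6.19 ± 0.567 TPM, well under Idh2 at 45.4 ± 2.52 TPM and the catalytic subunit gene Idh3a at 115 ± 6.81 TPM. The 34 genes varied little between replicates: their median coefficient of variation in CPM was 2.97% in control and 3.54% in itaconate libraries, against 7.02% and 7.0% for all genes tested, which are less abundant (a median of 24.9 CPM, against 104 CPM for the 34 genes).

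**Figure D1:**
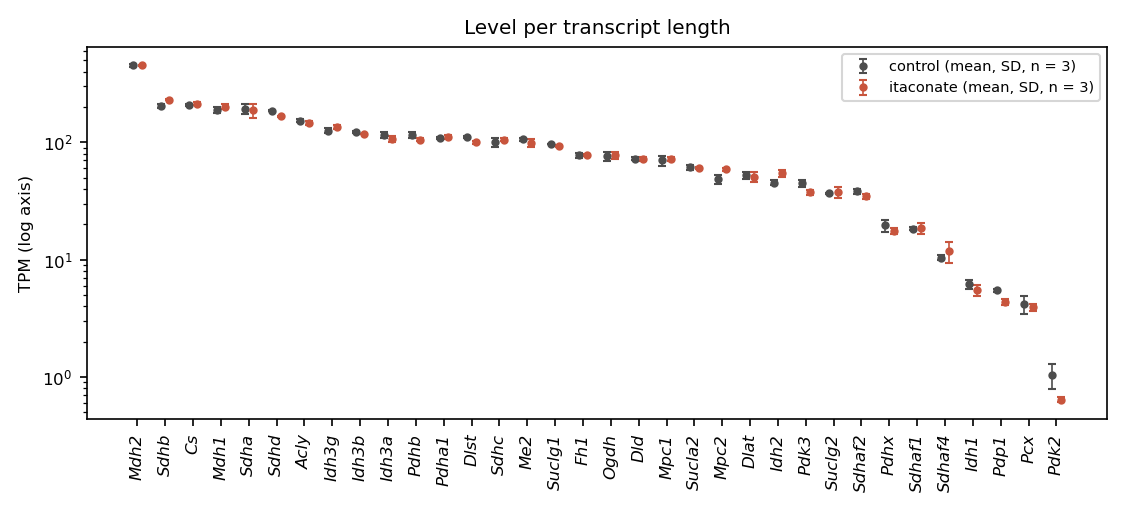
TPM of each gene on a log axis, as mean and SD of the 3 libraries of each group, in descending order. Mdh2 stands highest near 452 TPM and Pdk2 lowest near 1 TPM, and for most genes the groups lie close together compared with the range between genes.

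SDH has 4 subunits. Sdha carries the flavin and the succinate-binding site, Sdhb carries the iron-sulfur clusters that pass electrons on, and Sdhc and Sdhd anchor the enzyme in the inner membrane and bind ubiquinone. Sdhb was at 145, 148 and 145 CPM in control replicates 1, 2 and 3 and at 167, 179 and 176 CPM in itaconate replicates 1, 2 and 3. All 3 itaconate libraries lay above all 3 control libraries. The increase was 19.1% (log2 fold change 0.25 ± 0.047, SE; 95% interval 0.15 to 0.35; edgeR adjusted p 0.00339). Sdhb (ENSMUSG00000009863) lies on chromosome 4 at 140961203 to 140979193 in GRCm38.

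The other 3 subunits did not pass. Sdha was at 300, 311 and 307 CPM in control and 305, 305 and 323 CPM in itaconate libraries, with overlap between the groups (log2 fold change 0.02 ± 0.045, 95% interval -0.07 to 0.12). Sdhc was at 85.4, 89.98 and 84.7 CPM in control and 86.7, 93.9 and 97.9 CPM in itaconate libraries, again with overlap (0.10 ± 0.058, interval -0.02 to 0.22). Sdhd was at 144, 147 and 153 CPM in control and 133, 140 and 141 CPM in itaconate libraries. Its 3 itaconate libraries lay below the 3 control libraries, but the difference did not pass (-0.10 ± 0.049, interval -0.20 to 0.01, edgeR adjusted p 0.22). Under the 17 other analyses Sdhd passed, as lower, only with the replicate number as a block and a length and GC offset together (-0.118, edgeR adjusted p 0.0332). Sdhb and Sdhd had the highest and the lowest log2 fold change among the subunits, and their intervals do not overlap each other. The log2 ratio of Sdhb to Sdhd CPM was 0.014, 0.016 and -0.077 in control replicates 1 to 3 and 0.334, 0.355 and 0.312 with itaconate. The pair and this ratio were picked after the values of the genes were known, and the difference between Sdhb and Sdhd was not tested.

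Per transcript length, Sdha, Sdhb and Sdhd stood near each other in control cells, at 192 ± 19.1, 203 ± 8.23 and 186.5 ± 0.884 TPM, and Sdhc lower, at 100.3 ± 8.59 TPM. With itaconate, Sdhb stood at 230 ± 1.56 TPM and Sdhd at 166 ± 2.89 TPM. The TPM of Sdha depends on how the authors' program divided its reads between isoforms of different length: its effective length ran from 1841 to 2237 bases across libraries, and its TPM from 160 to 209, while its CPM stayed between 300 and 323.

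**Figure D2:**
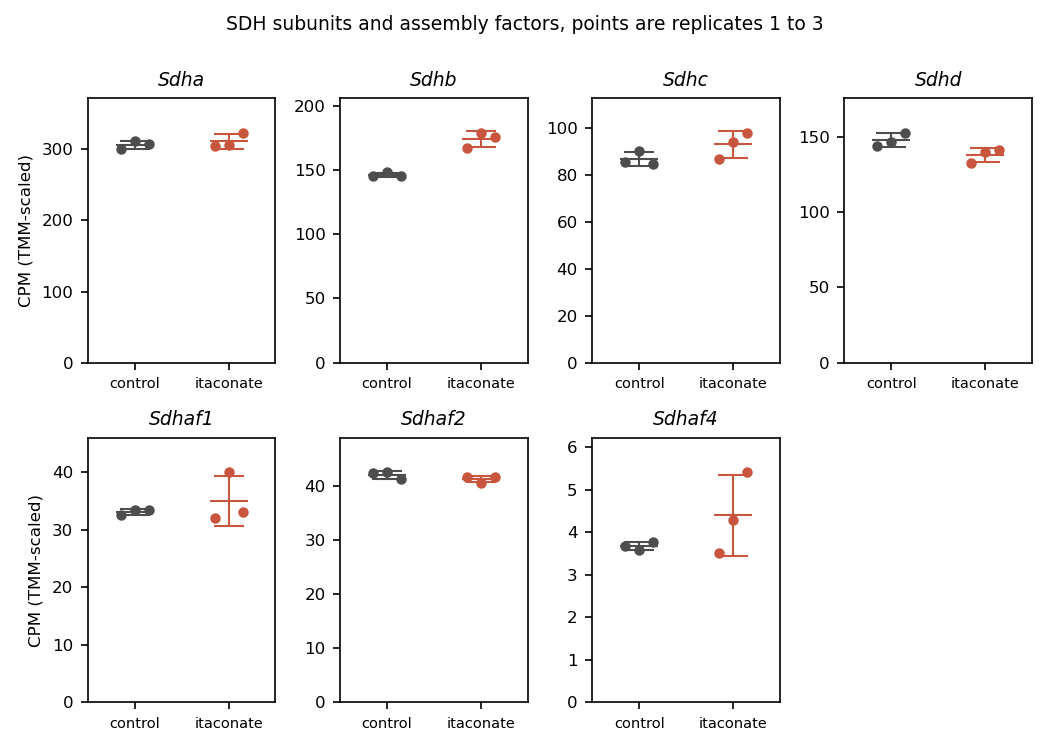
CPM of the SDH subunits and assembly factors in each library, with bars for mean and SD of the 3 libraries of a group; each vertical axis starts at 0. Sdhb separates the groups upward and Sdhd downward, and the other 5 genes overlap.

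The assembly factors did not pass either. Sdhaf1, which helps to insert the iron-sulfur clusters into Sdhb, was at 32.5, 33.4 and 33.4 CPM in control and 31.97, 39.95 and 33.03 CPM in itaconate libraries (log2 fold change 0.08 ± 0.083), and itaconate replicate 2 alone stood above the rest. Sdhaf2, which promotes the attachment of flavin to Sdha, was at 42.4, 42.5 and 41.1 CPM in control and 41.6, 40.6 and 41.7 CPM in itaconate libraries (-0.02 ± 0.060). Sdhaf4, which binds flavinated Sdha, was scarce, at 3.68, 3.58 and 3.78 CPM in control and 3.51, 4.27 and 5.41 CPM in itaconate libraries (0.26 ± 0.19, interval -0.15 to 0.67). It rests on 71 to 126 counts per library, and its interval spans both a decrease and a change larger than that of Sdhb. Sdhaf3, a further assembly factor that acts on the iron-sulfur subunit, stood at 4.22 ± 1.08 CPM without and 4.76 ± 1.01 CPM with itaconate (edgeR adjusted p 0.701).

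At the entry of pyruvate, the carrier is a pair of Mpc1 and Mpc2. Mpc2 was at 26.7, 31.6 and 33.9 CPM in control and 35.8, 41.0 and 39.5 CPM in itaconate libraries, and the groups did not overlap. It rose by 26.1% (log2 fold change 0.33 ± 0.089, interval 0.14 to 0.52, edgeR adjusted p 0.0254). Control replicate 1 was the lowest library for Mpc2, and without it the log2 fold change was 0.24 (adjusted p 0.0802). The call was also lost without control replicate 2 (0.0802), itaconate replicate 2 (0.109) or itaconate replicate 3 (0.096). Mpc1 was at 42.1, 40.0 and 37.4 CPM in control and 40.2, 45.8 and 42.9 CPM in itaconate libraries, with overlap (0.11 ± 0.071, interval -0.04 to 0.26).

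None of the 5 genes of the pyruvate dehydrogenase complex passed. Pdha1, the catalytic E1 alpha subunit, was at 217, 224 and 225 CPM in control and 232, 236 and 245 CPM in itaconate libraries, without overlap (0.10 ± 0.045, edgeR adjusted p 0.168). Its partner Pdhb was at 117 ± 11 and 112 ± 5.38 CPM, Dlat, the E2 core, at 99.6 ± 5.22 and 104 ± 7.16 CPM, and Dld, the E3 subunit shared with the 2-oxoglutarate dehydrogenase, at 131 ± 5.02 and 134 ± 8.14 CPM. Pdhx, which tethers E3 to the core, was at 30.0 ± 0.25 and 30.8 ± 1.04 CPM. Their fitted log2 fold changes lay between -0.07 and 0.10.

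None of the 3 regulators of the complex passed, and their fitted log2 fold changes were all below 0, from -0.35 to -0.14. Pdk3, a kinase that inactivates pyruvate dehydrogenase, was at 69.6, 67.4 and 63.4 CPM in control and 59.6, 58.8 and 57.8 CPM in itaconate libraries. The groups did not overlap, and the difference was at the edge of the threshold (-0.19 ± 0.058, interval -0.31 to -0.06, edgeR adjusted p 0.0514). Under the 17 other analyses the value stayed below 0 and passed in 4: without control replicate 3 (0.0292), with RLE scaling (0.0458), without a filter on low counts (0.0456) and with the replicate number as a block (0.0227). It did not pass in the other 13, among them DESeq2 (0.0779), the effective length offset (0.119), the length and GC offset (-0.13, 0.123) and the fits without any of the other 5 libraries (0.0801 to 0.162). Pdp1, which reverses the kinases, was at 9.49 ± 0.562 and 8.61 ± 0.145 CPM (-0.14 ± 0.11), without overlap. Pdk2 rests on 17 to 34 counts per library, and its interval of -1.16 to 0.46 is too wide to show a change of the size seen for the genes that rose. Pdk1, a further kinase of the complex and a target of hypoxia-inducible factor, was at 173 ± 10.2 and 165 ± 5.54 CPM (-0.07, edgeR adjusted p 0.42). Its TPM did not overlap between the groups, at 89.9 ± 4.36 and 73.5 ± 4.3. The value of Pdk1 was -0.23 with the effective length offset (edgeR adjusted p 0.0547) and -0.29 on log2(TPM + 1) (limma, 0.0634). With the length and GC offset it was -0.05 (edgeR, 0.56). Pdk4 had at most 0.0635 CPM in any library and was not tested.

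None of the genes of the other pyruvate and citrate reactions passed. Cs was at 438, 450 and 455 CPM in control and 472, 477 and 493 CPM in itaconate libraries, without overlap, but did not pass (0.10 ± 0.044, edgeR adjusted p 0.15). Acly, which splits exported citrate into acetyl-CoA in the cytosol, was at 480.5 ± 5.86 and 477 ± 15.7 CPM (-0.01 ± 0.045, interval -0.11 to 0.08). Me2, the mitochondrial malic enzyme, was at 199 ± 2.37 and 196 ± 13.0 CPM, with an interval of -0.13 to 0.09. Pcx was at 12.8 ± 1.86 and 12.6 ± 1.28 CPM (-0.02 ± 0.13).

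Isocitrate is oxidised by 3 enzymes: Idh1 in the cytosol, Idh2 in mitochondria, and the NAD-dependent enzyme made of Idh3a, Idh3b and Idh3g. Idh2 was at 55.3, 53.5 and 52.6 CPM in control and 65.5, 69.5 and 62.8 CPM in itaconate libraries. The itaconate libraries lay above the control libraries, and Idh2 rose by 22.5% (0.29 ± 0.059, interval 0.17 to 0.42, edgeR adjusted p 0.00562). Idh2 (ENSMUSG00000030541) lies on chromosome 7 at 80094846 to 80115392. Idh1 was at 9.28, 10.5 and 10.2 CPM in control and 7.08, 9.71 and 10.5 CPM in itaconate libraries, with overlap (-0.13 ± 0.14, interval -0.44 to 0.17).

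Within the NAD-dependent enzyme, Idh3g was at 105, 97.8 and 104 CPM in control and 114, 114 and 118 CPM in itaconate libraries, without overlap. It rose by 12.8% (0.17 ± 0.050, interval 0.07 to 0.28, edgeR adjusted p 0.0371), the smallest increase of the 4. Leaving out control replicate 1 kept this call, and leaving out any of the other 5 libraries lost it (adjusted p 0.0607 to 0.196). Idh3a, the catalytic subunit, was at 168 ± 3.62 and 164 ± 5.45 CPM (-0.03 ± 0.047), and Idh3b at 131 ± 1.69 and 134 ± 2.61 CPM (0.04 ± 0.046).

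**Figure D3:**
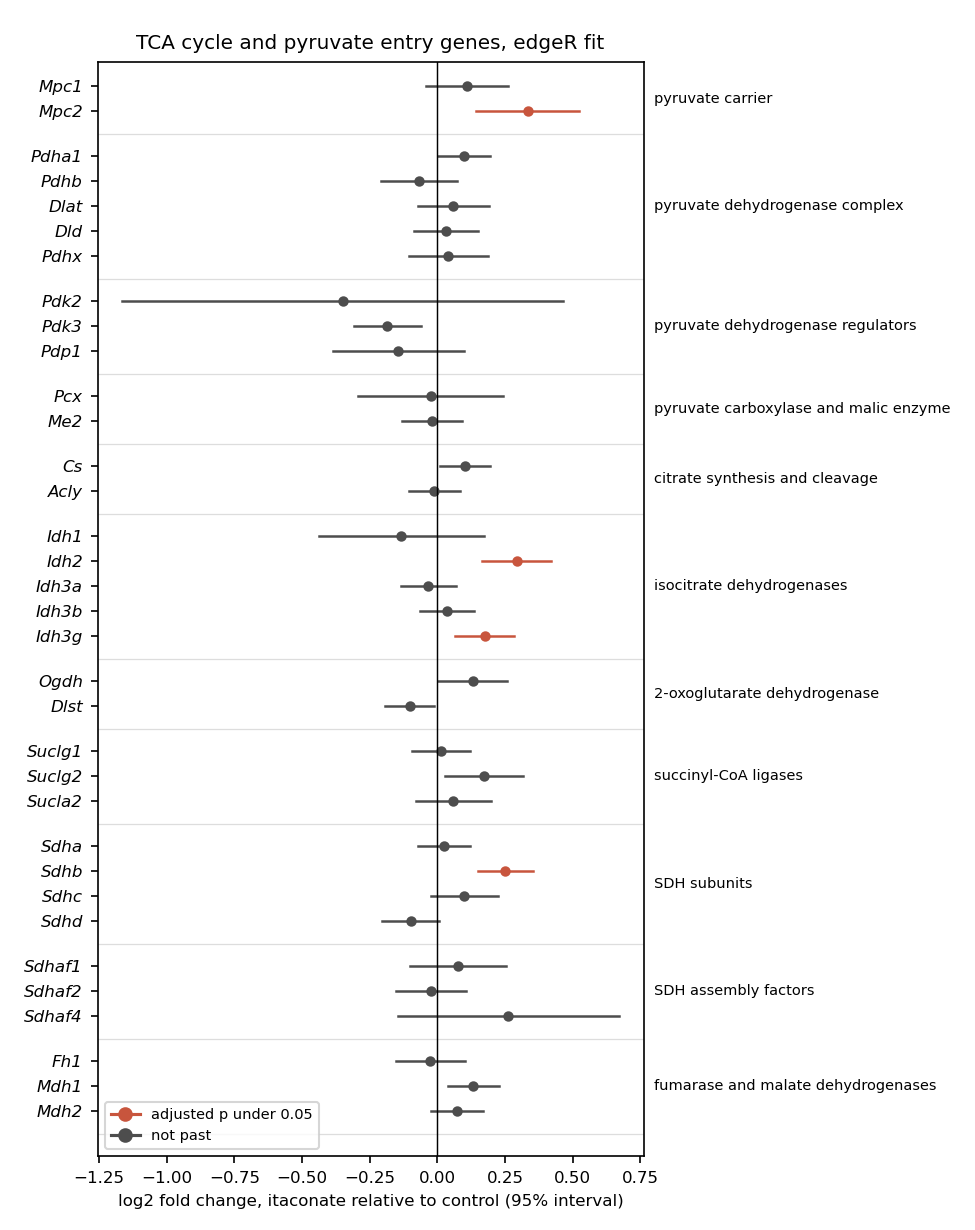
Fitted log2 fold change of each gene with its 95% interval, ordered by step from pyruvate entry to malate. The 4 genes past the threshold, Mpc2, Idh2, Idh3g and Sdhb, lie to the right of 0, and Idh2 and Idh3g belong to the same step, the oxidation of isocitrate.

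The steps from 2-oxoglutarate to malate, SDH apart, held no call. Ogdh and Dlst, the E1 and E2 components of 2-oxoglutarate dehydrogenase, had opposite signs. Ogdh was at 237, 207 and 205 CPM in control and 246, 226 and 239 CPM in itaconate libraries, and control replicate 1 fell among the itaconate libraries (0.13 ± 0.059, edgeR adjusted p 0.175). Without that library Ogdh passed, at 0.20 (adjusted p 0.0242), and without any of the other 5 libraries it did not (0.172 to 0.512). Dlst was at 206, 205 and 209 CPM in control and 194, 193 and 192 CPM in itaconate libraries, without overlap (-0.10 ± 0.043, adjusted p 0.138). The succinyl-CoA ligase makes succinate and a nucleoside triphosphate. Its shared subunit Suclg1 was at 98.9 ± 2.56 and 99.7 ± 2.20 CPM, the GTP-forming Suclg2 at 70.4 ± 4.59 and 79.3 ± 6.11 CPM (0.17 ± 0.068, adjusted p 0.117) and the ATP-forming Sucla2 at 73.4 ± 6.37 and 76.6 ± 1.32 CPM.

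Fh1, fumarase, was at 108 ± 3.91 and 106 ± 7.93 CPM (-0.03 ± 0.060, interval -0.15 to 0.10). Mdh1, the cytosolic malate dehydrogenase, was at 183, 180 and 182 CPM in control and 195, 199 and 204 CPM in itaconate libraries, without overlap, at an adjusted p of 0.0649 (edgeR; log2 fold change 0.13 ± 0.044). Mdh2 was at 438, 430 and 440 CPM in control and 443, 473 and 459 CPM in itaconate libraries (0.07 ± 0.045, adjusted p 0.329). For 20 of the 34 genes the 95% interval lay within 0.25 of 0 on the log2 scale on both sides.

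Beside the cycle, 30 further symbols were listed by function, and they stand under 31 gene identifiers, of which 25 could be tested. Of these 25, 5 passed the test and 20 did not, where 12.0% of all genes tested were called. The median log2 fold change of the 25 was 0.09, beside 0.01 for all genes tested. The list is small and was chosen with earlier results known, and the difference from all genes was not tested. The cytosolic Aco1, which doubles as an iron sensor, was at 46.0 ± 2.05 and 44.8 ± 3.27 CPM (adjusted p 0.793). Pck2, the mitochondrial enzyme that turns oxaloacetate into phosphoenolpyruvate, rose from 82.1 ± 10.7 to 129 ± 4.12 CPM (0.65 ± 0.079, edgeR adjusted p 0.000464). Gpt2, which exchanges pyruvate and alanine in mitochondria, rose from 52.2 ± 2.46 to 75.6 ± 1.17 CPM (0.54 ± 0.057). Acss1, which makes mitochondrial acetyl-CoA from acetate, rose from 8.84 ± 0.964 to 13.0 ± 0.223 CPM (0.56 ± 0.11).

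Glud1 and the transaminases Got1 and Got2, which connect glutamate with the cycle, did not pass (241 ± 8.56 and 259 ± 8.21 CPM for Glud1, 162 ± 11.9 and 159 ± 5.31 CPM for Got1, 451 ± 11.6 and 434.5 ± 16 CPM for Got2). The increases of Pck2, Gpt2 and Acss1 were larger on the log2 scale than that of any of the 34 genes with a mean of 10 CPM or more, where the largest absolute value was 0.33. This difference in size was not tested.

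**Figure D4:**
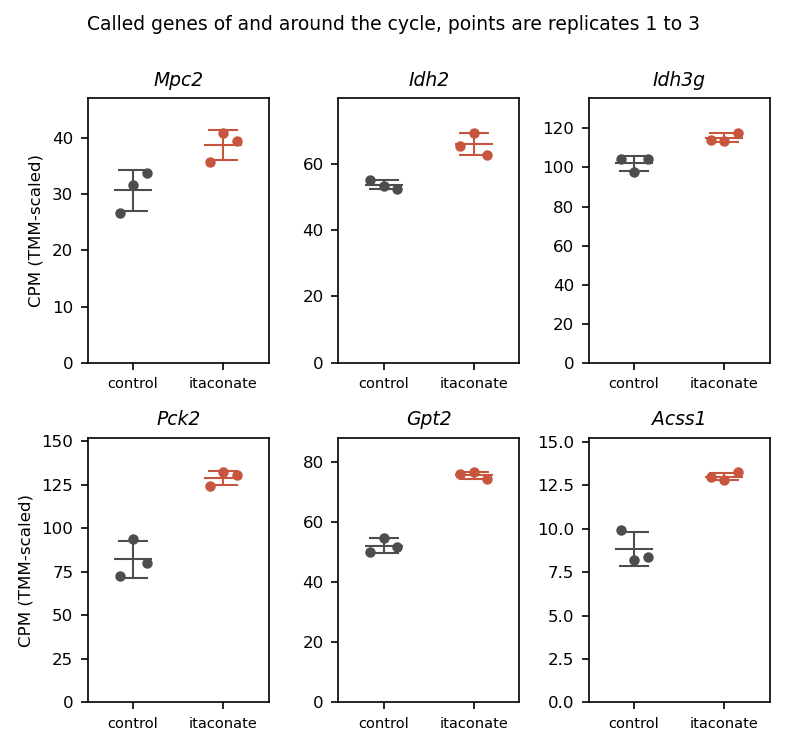
CPM in each library for Mpc2, Idh2, Idh3g, Pck2, Gpt2 and Acss1, with bars for mean and SD of the 3 libraries of a group; each vertical axis starts at 0. In all 6 panels every itaconate library lies above every control library.

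The genes outside the 34 whose log2 CPM followed Sdhb most closely over the 6 libraries were Ucp2 (Pearson's r 0.998), Smyd3 (0.998), Siah1a (0.997), H2afx (0.997) and 1110032F04Rik (0.995). Ucp2, an uncoupling protein of the mitochondrial inner membrane, was at 509, 525 and 507 CPM in control and 596, 638 and 619 CPM in itaconate libraries. The 6 libraries share the same 2 groups, and these 5 genes were the extremes among all genes tested, so the correlations are descriptions only.

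The 4 calls differed in how well they held under 17 other analyses. Sdhb and Idh2 were called in 14 of them and not in the 3 made on TPM values, where none of the 34 genes was called (adjusted p 0.0918 to 0.194 for Sdhb and 0.109 to 0.236 for Idh2). Those TPM analyses called 305, 304 and 59 of all genes (2.72%, 2.71% and 0.268%). Of the 305, 115 were higher, against 825 of 1487 in the count test. Sdhb and Idh2 kept their calls without any 1 library. Mpc2 was called in 9 and Idh3g in 6 of the 17. With a correction for transcript length and GC content the log2 fold change of Sdhb was 0.17 and that of Idh2 0.21, both still called; 7 of the 34 genes and 14.0% of all genes passed there. With effective length as an offset, 2 of the 34, Sdhb and Idh2, and 4.59% of all genes passed.

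**Figure D5:**
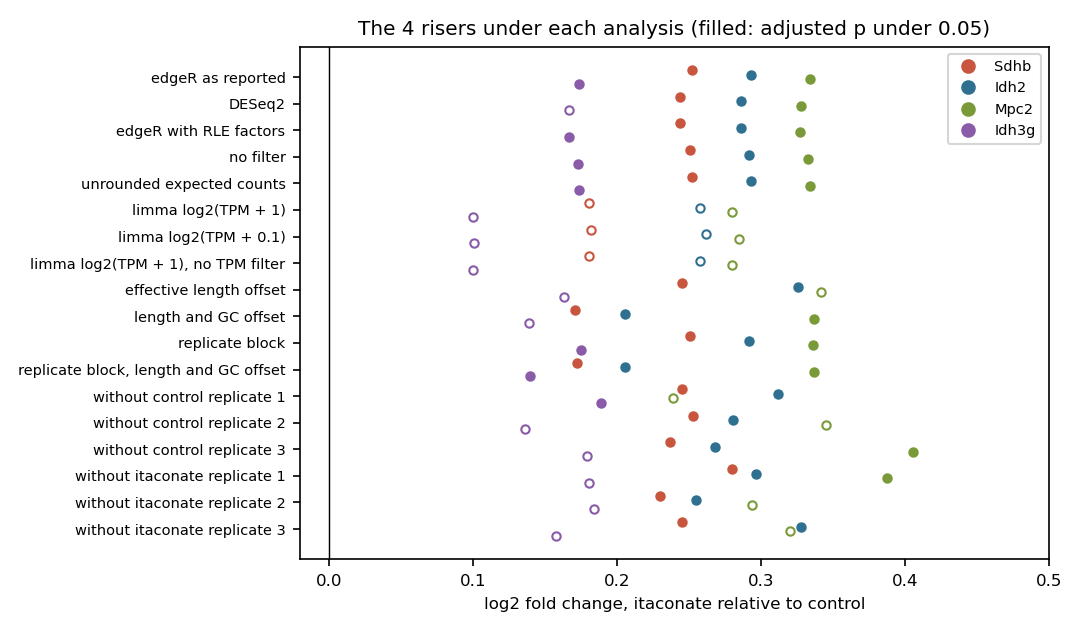
Log2 fold change of Sdhb, Idh2, Mpc2 and Idh3g under the reported analysis and each of 17 others; filled points have an adjusted p under 0.05. All values lie above 0, and the points of Sdhb and Idh2 are open only in the 3 TPM analyses.

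Exons of 7 of the 34 genes overlap a gene on the other strand in the annotation (Mdh1, Mpc1, Sdhaf1, Sdhaf2, Sdhaf4, Idh3b and Pdha1). Without a known strand setting, reads within the shared stretches may belong to either gene, and the length of these stretches was not measured. None of the 4 genes that rose is among them. Sdhd and Dlat lie 30820 bases apart on chromosome 9 and had fitted changes of opposite sign, -0.10 and 0.06, neither past the threshold.

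Totals per library lay between 18280217 and 31643408 expected counts. All 8 listed T cell markers were present: the CD8 chains Cd8a and Cd8b1, and Cd3e, Cd3d, Cd3g, Trac, Trbc2 and Lck, which are not particular to CD8 cells. They summed to 2244 to 2320 CPM in control and 2489 to 2521 CPM in itaconate libraries. Of them, 1 rose, Cd8a, from 497 ± 27.4 to 645 ± 14.4 CPM. Cd8b1 was at 289 ± 23.4 and 312 ± 9.73 CPM and did not pass. Cd4 was between 2.0 and 5.79 CPM in all libraries. Summed levels in control and itaconate libraries were 11.1 to 16.1 and 9.60 to 20.0 CPM for 4 B cell markers, 1.69 to 2.22 and 2.55 to 3.82 CPM for 5 myeloid markers, and 0.242 to 0.857 and 0 to 0.858 CPM for 3 dendritic cell markers, of which Siglech was at 0. Of the erythroid markers, Hba-a1 was at 0.371, 0.58 and 0.508 CPM in control replicates 1, 2 and 3 and at 1.44, 2.39 and 0 CPM in itaconate replicates 1, 2 and 3, and Hbb-bs at 0.297, 0.677 and 0.413 CPM and 1.53, 1.61 and 0.129 CPM. For both, itaconate replicates 1 and 2 lay above the control libraries and itaconate replicate 3 below them, and neither passed. Of 3 NK cell markers, summing to 96.4 to 108 and 110 to 138 CPM, nearly all came from Eomes, which effector T cells also express and which rose. The part of other cells in the results was not tested, and in bulk samples fewer cells of a type and less RNA per cell cannot be told apart.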

How the data were processed

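Members and gene lists were chosen with earlier results of these data known. Per the file headers, the authors deposited RSEM-style tables holding, for each gene, an expected count (not normalised), an effective length and a TPM value. Per the submitters' processing notes, Bowtie 0.12.2 and the builds mm8 and mm10 were used, with no role stated. The RSEM version, strand setting, annotation release and trimming are not given in the sources that were used.

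Expected counts, of which 5.99% to 6.93% per library were further than 0.001 from a whole number, were rounded. Genes were kept by edgeR's expression filter (minimum count 10, minimum total 15), scaled with TMM factors and tested with edgeR 4.0.16 (R 4.3.3; quasi-likelihood, robust, two-sided, group only, Benjamini-Hochberg over all genes kept). Alternatives used DESeq2 1.42.0 on counts and limma 3.58.1 on log2(TPM + 1) or log2(TPM + 0.1), where fold changes of low genes are understated. Positions, GC content (99.83% of genes matched) and overlaps came from GENCODE M21 on GRCm38, looked up by identifier. All 34 genes are named; those called, and SDH genes, with every library. The test was tried on simulated counts for 12292 genes, with the same dispersion for every gene. Far fewer genes were planted as changed than were called in the data (149 calls in all, against 1487). It recovered 28% at a planted 1.25-fold change, 68% at 1.5-fold and 92% at 2-fold, over genes of all levels. The 34 genes had a higher median level and a lower median variation between replicates, so these shares do not give the recovery for them. Results for some of the listed genes are not reported here.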

Additional observations from a re-analysis of the deposited data

How the results depend on the processing

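The 4 called genes kept their direction in all 17 alternatives, and the direction of the median of the 34 genes did not hold: it was 0.04 as reported and -0.0173, -0.0175 and -0.0288 on log2(TPM + 1), log2(TPM + 0.1) and log2(TPM + 1) without a filter. In that order, the count of the 34 genes called was 0, 0 and 0, that of all genes 305, 304 and 59, and that of the listed genes around the cycle 2, 2 and 1 (5 as reported). No median of all genes is given for the TPM analyses, so these medians do not show a shift relative to other genes. Of the 34 genes tested on log2(TPM + 1) with the filter, all but Fh1 had a lower value there than in the count fit. Cs stood at 0.0379 there and 0.102 in the count fit, Sdhb at 0.181 and 0.252, and Fh1 at 0.00543 and -0.0267. With effective length as an offset, 2 of the 34 and 567 of all genes were called, and with a length and GC offset 7 of the 34 were, Idh3g no longer among them and Pdha1, Cs, Suclg2 and Mdh1 added. Leaving out 1 library gave 2 to 4 of the 34, 726 to 1400 of all genes (5.70% to 11.2%), 4 to 6 of the listed genes and medians from 0.0248 to 0.0681; the lowest counts of all genes were 726 without control replicate 2, 835 without itaconate replicate 3 and 896 without itaconate replicate 2. The causes were not tested.

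The labels do not say whether replicate numbers pair the libraries. Deviations of same-numbered libraries from their group means correlated across genes at 0.113, 0.031 and 0.003 for replicates 1, 2 and 3. Not every library correlated best with its own number: control replicate 3 stood at 0.066 with itaconate replicate 2. Weak correlations among 3 libraries a group cannot decide whether the numbers pair them. With the replicate number as a block, 8 of the 34 and 2419 of all genes (19.6%) were called, adding Pdk3 (lower) and Ogdh, Suclg2 and Mdh1 (higher), and with the length and GC offset as well, 10 of the 34 and 2305 of all genes (18.7%). Those 10 included Sdhd as lower and did not include Pdk3.

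Of 576 values of single genes among the 34 under the alternatives, 47 changed sign, in 15 genes that were not called, all at an adjusted p of 0.447 or more. On log2(TPM + 1), with and without the filter, these were Dlat -0.0475, Dld -0.00929, Pdhx -0.142, Idh3b -0.0486, Suclg1 -0.0569, Sucla2 -0.0173, Sdha -0.0403 and Fh1 0.00543, and on log2(TPM + 0.1) they were -0.0484, -0.0094, -0.149, -0.049, -0.0575, -0.0175, -0.0405 and 0.0055. With the effective length offset Pdhx was at -0.0903 and Fh1 at 0.0664. With the length and GC offset Me2, Suclg1 and Mdh2 were at 0.0111, -0.00518 and -0.0129, and with the block added at 0.0102, -0.00507 and -0.0124. Without 1 library, the values ran from -0.149 to 0.076 for Pcx, -0.0054 to 0.0287 for Suclg1, -0.0776 to 0.0292 for Fh1, -0.00895 to 0.0783 for Dld, -0.113 to 0.00503 for Pdhb, -0.256 to 0.0192 for Idh1, -0.0703 to 0.0252 for Me2, -0.036 to 0.0116 for Acly, -0.0262 to 0.136 for Sdhaf1 and -0.00516 to 0.0379 for Sdha.

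Pdk2, Sdhaf4 and Idh1 had few counts and the widest intervals of the 34 genes.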

Other observations

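The symbol Nnt, the mitochondrial transhydrogenase that links NADH to NADPH, stands under 2 gene identifiers in the tables, and reads were divided between them differently in each library. The identifier ENSMUSG00000025453 held 4.83, 22.3 and 3.78 CPM in control replicates 1, 2 and 3 and 22.5, 18.6 and 15.8 CPM in itaconate replicates 1, 2 and 3, and ENSMUSG00000116207 held 20.8, 4.40 and 19.1 CPM and 4.75, 10.4 and 12.0 CPM. Their sum was steadier, at 25.6, 26.7 and 22.9 CPM in control and 27.3, 29.0 and 27.8 CPM in itaconate libraries. The sum was not tested, and neither identifier passed the test alone.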
